A study of Mus musculus with 12 samples.

Results

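The genes described here belong to glycolysis, the pentose phosphate pathway, the oxygen sensor of the cell and a small set that hypoxia is known to induce. They were taken as the rows of the deposited table whose gene symbol was 1 of 36 names, and these gave 37 of the 18376 rows, because *Aldoa* is listed under a pair of gene identifiers. Expression was measured by mRNA sequencing in 12 libraries of BMDMs (bone marrow-derived macrophages), which are grown in vitro from progenitor cells of adult WT C57BL6/J mice. All 4 groups, with 3 libraries each, received 50 ng/ml M-CSF, the growth factor that turns bone marrow progenitors into macrophages. CTRL cells got nothing else, Act cells 50 ng/ml activin A, FST cells 250 ng/ml FST288, and Act + FST cells both, for 6 days. Activin A is a ligand of the TGF-β family, here the human recombinant protein, and FST288 is an isoform of follistatin, the natural antagonist that sequesters activin A away from receptors. The labels do not say whether the replicates came from separate mice or cultures, so p-values measure the spread between these libraries, which may be technical.

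Values are normalized counts, that is, read counts per gene that the authors scaled per library and rounded to whole numbers. They summed to between 5643708 and 5955400 per library. All 8 macrophage markers were present in every group, with summed values of 11172 to 12394. Summed values of 4 cell cycle markers were 1218 to 1312 in Act and 1845 to 2207 in CTRL, and the highest, 3844, was in Act + FST replicate 3. Summed neutrophil markers were 1258 to 1627 in CTRL and 1002 to 1556 in Act. Their genes did not move alike: *Mpo* was 54 to 162 in CTRL and 15 to 42 in Act, and *S100a9* was 186 to 220 and 186 to 241. Summed monocyte markers were 175 to 401 in CTRL and 161 to 402 in Act. For both lists replicate 2 had the highest sum of each group. Summed values of the 5 stromal markers found in the table were 55 to 200 in the libraries numbered 1 and 3 to 20 in the other 8. The part of cell cycle, neutrophil, monocyte and stromal markers in the results below was not tested. Fits without the libraries numbered 1 are given below, but they leave out all that differs in those libraries. They therefore do not test the part of any of these markers. In bulk RNA, fewer cells of a type and less RNA per cell cannot be told apart.

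Glycolysis splits glucose into pyruvate. Hexokinases trap glucose inside the cell as glucose 6-phosphate, phosphofructokinase commits it to glycolysis, and lactate dehydrogenase converts pyruvate and lactate into each other. The pentose phosphate pathway draws on the same glucose 6-phosphate and makes NADPH and ribose phosphate. In macrophages this metabolism is known to change with activation. HIF-1α, the product of *Hif1a*, is a transcription factor that prolyl hydroxylases (*Egln1*, *Egln3*) mark for degradation when oxygen is present. It is known to bind DNA at the core letters ACGTG or GCGTG and to induce many glycolytic genes.

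Act libraries had a different composition of isozymes, more *Hif1a* mRNA and small rises at a few other steps of the pathways. Relative to CTRL, 13 of the 36 rows tested were higher (36.1%) and 3 were lower (8.33%), where 10.3% of all 14318 genes tested were higher and 9.97% were lower. The members were chosen with earlier results of these data known. These shares, and those of members given below, are therefore a description and no independent test. Without CTRL replicate 2 the number of higher rows was 7, and without CTRL replicate 3 or Act replicate 1 it was 8. Shares of all genes in those fits are not given here. A loss particular to these rows therefore cannot be told from a general one. A gene was called higher or lower when its p from limma, fitted to log2(normalized count + 1), was at most 0.05 after Benjamini-Hochberg adjustment over all genes tested. The median log2 fold change was 0.11 over the 36 rows and 0.00 over all genes. A fold change of at least 2, required for a DEG, was reached by *Ldhb* alone, 1 of 36 rows, where 2.58% of all genes were upregulated DEGs and 3.09% downregulated DEGs. *Adm*, which encodes the peptide adrenomedullin, had normalized counts of 0 to 8 and was not tested.

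**Figure D1:**
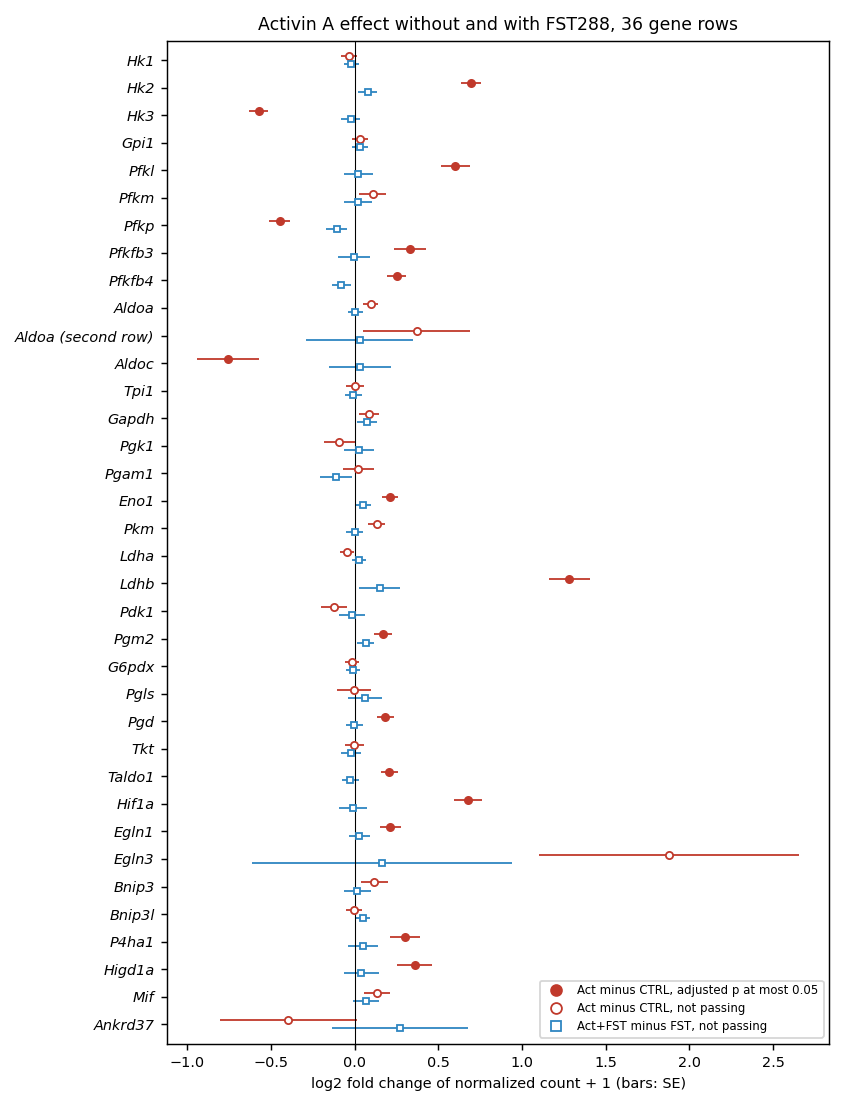
Log2 fold change of normalized count + 1 for the 36 rows tested, on the horizontal axis, with bars for the SE. Red circles are Act minus CTRL, filled where the adjusted p was at most 0.05, and blue squares are Act + FST minus FST. The 16 filled circles lie between -0.75 and 1.28, and no blue square passed the test.

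The same genes can be read beside the DNA upstream of their starts. The sequences below, of 250 bases each, come from the RefSeq promoter table for GRCm38.p6 and end at the base before the annotated start of transcription, on the strand of the gene. They show the hexokinase pair that moved in opposite directions, the only DEG, and *Egln3* and *Ankrd37*, which outside Act were highest in the libraries numbered 1. Capitals mark ACGTG or GCGTG on the printed strand, and CACGT or CACGC, which are the same letters on the other strand.
Hk2, chr6:82774455-82774704, minus strand: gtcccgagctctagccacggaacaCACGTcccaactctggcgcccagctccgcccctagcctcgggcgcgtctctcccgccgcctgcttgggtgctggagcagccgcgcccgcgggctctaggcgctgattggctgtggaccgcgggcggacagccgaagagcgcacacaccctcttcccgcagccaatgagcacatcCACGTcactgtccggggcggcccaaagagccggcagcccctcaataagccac
Hk3, chr13:55021386-55021635, minus strand: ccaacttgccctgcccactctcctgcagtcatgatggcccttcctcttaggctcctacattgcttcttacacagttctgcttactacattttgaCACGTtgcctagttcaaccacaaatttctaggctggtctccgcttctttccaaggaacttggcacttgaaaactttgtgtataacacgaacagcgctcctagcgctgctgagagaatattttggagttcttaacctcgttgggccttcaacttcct
Ldhb, chr6:142507958-142508207, minus strand: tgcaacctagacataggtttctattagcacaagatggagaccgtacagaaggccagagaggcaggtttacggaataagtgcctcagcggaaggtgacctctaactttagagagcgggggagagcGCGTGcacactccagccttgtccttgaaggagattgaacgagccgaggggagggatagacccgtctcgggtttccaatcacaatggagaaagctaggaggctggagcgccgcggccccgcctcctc
Egln3, chr12:54203875-54204124, minus strand: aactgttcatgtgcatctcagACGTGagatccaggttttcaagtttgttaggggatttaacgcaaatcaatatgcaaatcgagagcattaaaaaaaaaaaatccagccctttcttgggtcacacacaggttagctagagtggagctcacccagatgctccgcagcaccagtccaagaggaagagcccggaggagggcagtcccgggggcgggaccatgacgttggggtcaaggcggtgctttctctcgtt
Ankrd37, chr8:45999851-46000100, minus strand: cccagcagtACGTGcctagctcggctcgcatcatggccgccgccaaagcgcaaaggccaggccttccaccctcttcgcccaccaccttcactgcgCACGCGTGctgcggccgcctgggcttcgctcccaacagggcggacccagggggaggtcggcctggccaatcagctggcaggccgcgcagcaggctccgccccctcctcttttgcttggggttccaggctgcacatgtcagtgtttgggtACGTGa

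The upstream stretch of *Hk2* held ACGTG 2 times, both on the other strand, and that of *Hk3* held it 1 time, also on the other strand. *Ldhb* held GCGTG only, and in *Ankrd37* a pair of GCGTG matches on opposite strands overlap by 2 letters. Counted over windows from 250 bases before to 50 bases after the start, on both strands, 22 of the 35 member genes with a window (62.9%) held ACGTG, where 21.8% of 27025 genes did. GCGTG was in the windows of 24 member genes (68.6%) and of 35.2% of all genes. Among members, ACGTG was present in 7 of the 13 genes that were higher in Act, in 2 of the 3 that were lower, and in 13 of the 18 tested genes with a window that did not pass. GCGTG was present in 10 of the 13 higher genes, in 2 of the 3 lower genes and in 11 of the 18. *Bnip3l* had no window.

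At the first step of glycolysis, *Hk2* rose and *Hk3* fell in Act. *Hk2* encodes the inducible hexokinase that docks on mitochondria. Its normalized counts were 646, 610 and 618 in CTRL, 1034, 996 and 1007 in Act, 593, 557 and 581 in FST and 677, 582 and 573 in Act + FST. Every Act library was above each of the other 9. The fold change of Act versus CTRL was 1.62 (log2 0.70, SE 0.06, adjusted p = 6.7e-06). *Hk3*, the hexokinase of myeloid cells, had 1303, 1320 and 1280 in CTRL, 894, 923 and 809 in Act, 1316, 1317 and 1368 in FST and 1241, 1289 and 1408 in Act + FST. Here every Act library was below the other 9, with a log2 fold change of -0.57 (SE 0.06, adjusted p = 1.8e-05). *Hk1*, the housekeeping form, was at 994 ± 55.2 in CTRL and 970 ± 35.9 in Act (SD, n = 3 here and below) and did not pass (adjusted p = 0.68).

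The summed value of the 3 hexokinases, not adjusted for length, was 2920 ± 78.7 in CTRL and 2858 ± 84.1 in Act. Such sums in CTRL and Act were 1659 and 1820 for phosphofructokinases, 827 and 978 for lactate dehydrogenases and 1449 and 1351 for aldolases. They were 1497 and 1833 for *Pfkfb3* with *Pfkfb4*, and 506 and 669 for *Egln1* with *Egln3*. Shares were taken from values divided by the exonic length of each gene, so that levels of different genes can be compared roughly. They were not corrected for reads that share a start position, here or below. On this basis *Hk2* made up 18.2% ± 0.372 of hexokinase signal in CTRL and 32.6% ± 1.07 in Act. *Hk3* made up 61.5% ± 1.03 in CTRL and 45.6% ± 1.78 in Act. With the length of 1 principal transcript in place of all exons, the share of *Hk2* was 14.6% and 26.0%. The share of *Hk3* in Act + FST was 61.5% ± 2.33, near that of CTRL.

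At the phosphofructokinase step, *Pfkl* rose and *Pfkp* fell. *Pfkl*, the liver-type phosphofructokinase, had 666, 634 and 563 in CTRL, 924, 950 and 946 in Act, 625, 602 and 554 in FST and 700, 577 and 540 in Act + FST. The Act libraries lay above all others, and the log2 fold change against CTRL was 0.60 (SE 0.09, adjusted p = 0.0004). *Pfkp*, the platelet type, had 730, 687 and 661 in CTRL, 513, 490 and 519 in Act, 746, 689 and 712 in FST and 684, 599 and 716 in Act + FST. It was lowest in the 3 Act libraries (log2 -0.45, SE 0.06, adjusted p = 0.00033). *Pfkm*, the muscle type, did not pass (log2 0.11, adjusted p = 0.41). Per exonic base, *Pfkl* accounted for 37.5% ± 2.65 of phosphofructokinase signal in CTRL and 48.6% ± 1.84 in Act, and *Pfkp* for 20.8% ± 0.887 and 13.1% ± 0.545. With the length of 1 principal transcript, *Pfkl* was at 36.7% ± 1.96 and 50.1% ± 1.44. On that basis *Pfkp* was at 36.8% ± 0.927 and 24.3% ± 0.782, so the order of the isozymes depended on the length used while the direction of both changes did not.

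*Pfkfb3* and *Pfkfb4* encode bifunctional enzymes that make fructose 2,6-bisphosphate, the strongest activator of phosphofructokinase. *Pfkfb3* had 821, 794 and 730 in CTRL, 1045, 1001 and 904 in Act, 807, 825 and 673 in FST and 815, 819 and 667 in Act + FST. *Pfkfb4* had 770, 706 and 669 in CTRL, 836, 827 and 886 in Act, 763, 729 and 682 in FST and 704, 694 and 657 in Act + FST. Both were higher in Act than in any other library, by log2 0.33 (SE 0.09, adjusted p = 0.026) and 0.25 (SE 0.06, adjusted p = 0.0087) against CTRL. The call for *Pfkfb3* was lost without CTRL replicate 2 (adjusted p = 0.057), CTRL replicate 3 (adjusted p = 0.11), Act replicate 1 (adjusted p = 0.095) or Act replicate 2 (adjusted p = 0.079), and it held with the replicate number as a block (adjusted p = 2.1e-05).

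**Figure D2:**
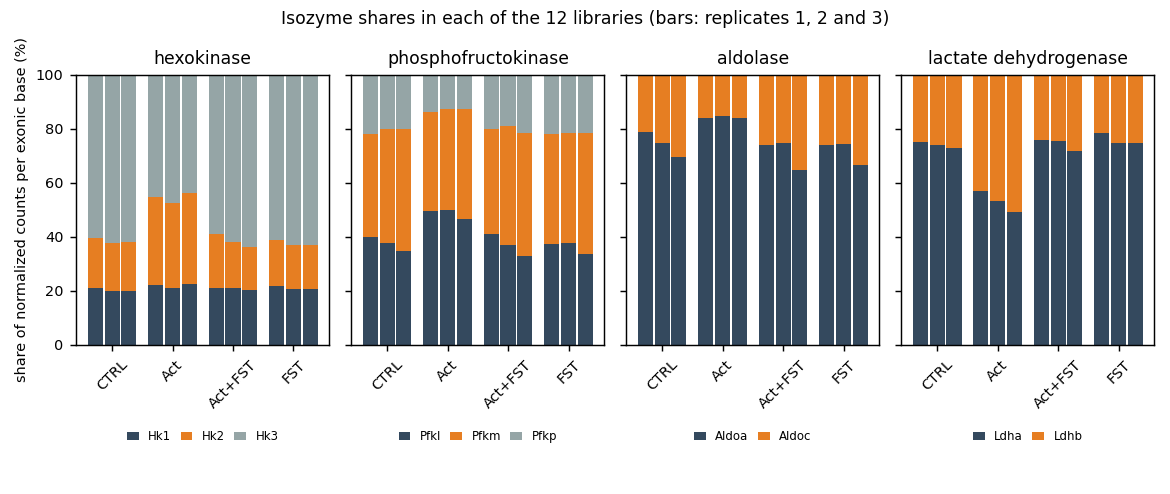
Share of each isozyme in its family, in percent of normalized counts per exonic base, for every library. Each bar is 1 library and each set of 3 bars is 1 group. In Act, the shares of *Hk2*, *Pfkl* and *Ldhb* are larger than in the other groups and those of *Hk3*, *Pfkp* and *Aldoc* smaller.

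Among the other enzymes of upper glycolysis, *Aldoc* was lower in Act. It encodes aldolase C, the form known from brain, beside the more abundant aldolase A of *Aldoa*. Its normalized counts were 332, 389 and 496 in CTRL, 243, 223 and 245 in Act, 405, 420 and 565 in FST and 402, 403 and 636 in Act + FST. The 3 Act libraries were below the other 9, and outside Act the libraries numbered 3 were the highest of their groups. The log2 fold change against CTRL was -0.75 (SE 0.18, adjusted p = 0.012), and without CTRL replicate 3 it was -0.60 (adjusted p = 0.057). The highest value, 636, came from Act + FST replicate 3, the library with the highest cell cycle markers. *Aldoc* made up 25.7% ± 4.69 of aldolase signal per exonic base in CTRL and 15.9% ± 0.380 in Act, and 17.4% ± 3.54 and 10.3% ± 0.262 by principal transcript. *Gpi1* (glucose 6-phosphate isomerase), *Aldoa* and *Tpi1* (triosephosphate isomerase) did not pass, with log2 fold changes of 0.03, 0.10 and 0.00. The second *Aldoa* row had 5 to 11 normalized counts.

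Lower glycolysis, from glyceraldehyde 3-phosphate to pyruvate, changed little. Of its 5 genes, *Eno1*, which encodes enolase, was higher in Act. It had 394, 375 and 370 in CTRL, 420, 458 and 444 in Act, 372, 369 and 347 in FST and 381, 375 and 371 in Act + FST, with every Act library above the rest (log2 0.21, SE 0.05, adjusted p = 0.0072). *Pkm*, for pyruvate kinase, had 1007, 919 and 899 in CTRL and 1052, 1009 and 1030 in Act, a log2 difference of 0.13 (SE 0.05). It did not pass (adjusted p = 0.085) and did pass with the replicate block (adjusted p = 0.031) or without CTRL replicate 1 (adjusted p = 0.021). *Gapdh*, *Pgk1* and *Pgam1* had log2 fold changes of 0.09, -0.09 and 0.02 and did not pass. Many processed copies of *Gapdh*, *Pgk1* and *Pgam1* are known in the genome, and reads aligning to several places were left out, so the levels of these genes are uncertain.

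*Ldhb* showed the largest change of the members that passed. It encodes the heart-type subunit of lactate dehydrogenase, while *Ldha* encodes the muscle-type subunit that HIF-1α is known to induce. Normalized counts of *Ldhb* were 116, 116 and 121 in CTRL, 249, 289 and 331 in Act, 89, 113 and 106 in FST and 105, 106 and 131 in Act + FST. The lowest Act library was well above the highest of the others, and the fold change against CTRL was 2.43 (log2 1.28, SE 0.12, adjusted p = 1.8e-05). *Ldha* was at 709 ± 28.2 in CTRL and 688 ± 15.6 in Act and did not pass (log2 -0.04, adjusted p = 0.53). On the basis of exonic length, the share of *Ldhb* in the pair was 25.9% ± 1.13 in CTRL and 46.9% ± 4.02 in Act. It was 25.7% ± 2.12 where FST288 was added with activin A and 24.1% ± 2.29 with FST288 alone. By principal transcript the share was 18.4% ± 0.884 in CTRL and 36.2% ± 3.73 in Act. *Pdk1*, a kinase that holds pyruvate dehydrogenase inactive, did not pass (log2 -0.12, adjusted p = 0.3).

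**Figure D3:**
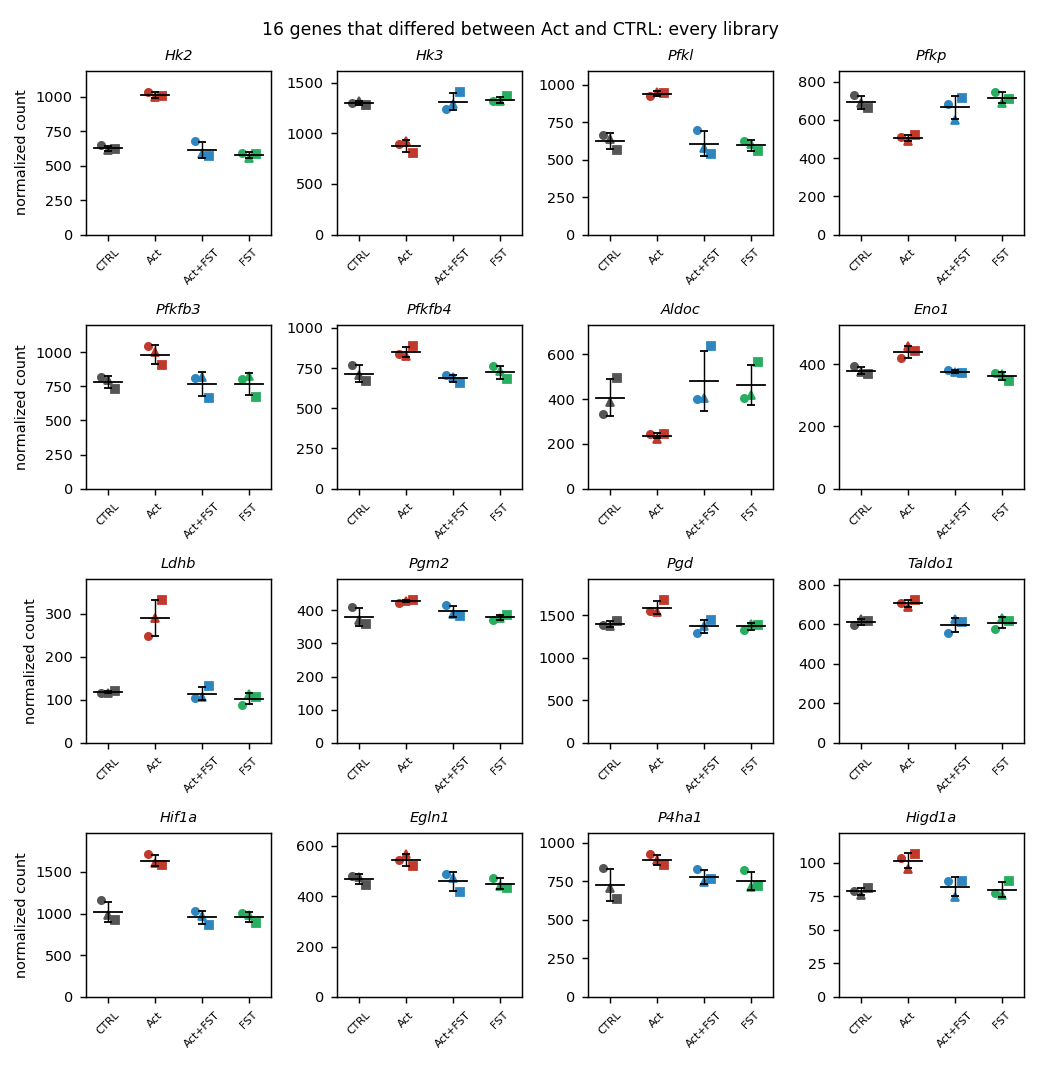
Normalized counts in every library for the 16 genes that differed between Act and CTRL. Circles, triangles and squares are replicates 1, 2 and 3, the horizontal line is the group mean and the bar the SD (n = 3), and each vertical axis starts at 0. For all 16 genes the 3 Act libraries lie on 1 side of the 9 others. The genes were chosen for their difference from CTRL, and the share of all called genes that lie so was not counted.

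In the pentose phosphate pathway, 2 of 5 genes were higher in Act. *Pgd*, which encodes the second NADPH-forming dehydrogenase, had 1382, 1366 and 1435 in CTRL, 1548, 1534 and 1673 in Act, 1321, 1397 and 1385 in FST and 1288, 1376 and 1436 in Act + FST. *Taldo1*, for transaldolase of the non-oxidative branch, had 594, 625 and 614 in CTRL, 707, 687 and 721 in Act, 577, 633 and 615 in FST and 558, 624 and 611 in Act + FST. The Act libraries were above all others for both genes. The log2 fold changes against CTRL were 0.18 for *Pgd* (SE 0.05, adjusted p = 0.02) and 0.21 for *Taldo1* (SE 0.05, adjusted p = 0.012). The call for *Pgd* was lost without CTRL replicate 2 (adjusted p = 0.069), Act replicate 3 (adjusted p = 0.088) or CTRL replicate 1 (adjusted p = 0.05 after rounding).

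*G6pdx*, which encodes the enzyme that opens the pathway, did not pass. Its normalized counts were 1211, 1125 and 1156 in CTRL, 1158, 1144 and 1146 in Act, 1148, 1219 and 1178 in FST and 1131, 1187 and 1207 in Act + FST. The groups overlapped (log2 -0.02, SE 0.04, adjusted p = 0.82). *Pgls* and *Tkt* (6-phosphogluconolactonase and transketolase) did not pass either, with log2 fold changes of 0.00 for both. *Pgm2*, a mutase of pentose phosphates in the phosphoglucomutase family, had 410, 371 and 358 in CTRL, 423, 428 and 430 in Act, 372, 377 and 387 in FST and 415, 390 and 384 in Act + FST. It was higher in Act than in CTRL (log2 0.17, SE 0.05, adjusted p = 0.039). That call was lost when any of 7 libraries was left out (CTRL replicates 2 and 3, the 3 Act replicates, and FST replicates 2 and 3), with adjusted p up to 0.16.

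*Hif1a* was higher in Act. Its normalized counts were 1158, 986 and 926 in CTRL, 1708, 1600 and 1586 in Act, 1006, 981 and 888 in FST and 1026, 970 and 862 in Act + FST. The Act libraries lay far above the other 9, and in each group replicate 1 was the highest. The fold change against CTRL was 1.60 (log2 0.68, SE 0.08, adjusted p = 0.00013). *Egln1*, the main prolyl hydroxylase acting on HIF-1α, had 481, 477 and 445 in CTRL, 544, 565 and 518 in Act, 473, 441 and 432 in FST and 489, 470 and 416 in Act + FST. It rose less (log2 0.21, SE 0.06, adjusted p = 0.032), with Act above all other libraries. This call was lost without CTRL replicate 2 (adjusted p = 0.059), CTRL replicate 3 (adjusted p = 0.13), Act replicate 1 (adjusted p = 0.08) or Act replicate 2 (adjusted p = 0.12).

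Values of *Egln3*, a prolyl hydroxylase that hypoxia itself induces, varied with replicate number. Their difference between Act and CTRL passed in some fits only. Normalized counts were 66, 30 and 19 in CTRL, 124, 127 and 128 in Act, 76, 19 and 15 in FST and 132, 19 and 12 in Act + FST. The 3 Act libraries were alike, and outside Act the library numbered 1 was the highest of each group, in Act + FST above any Act library. Against CTRL the log2 fold change was 1.88 (SE 0.78) and did not pass (adjusted p = 0.11). It passed with the replicate block (SE 0.44, adjusted p = 0.0045) without Act + FST replicate 1 (adjusted p = 0.03) and with only the CTRL and Act libraries in the fit (adjusted p = 0.0094). With the libraries numbered 1 left out of every group, it was 2.37 (adjusted p = 0.0011). With the block, 2 of the 36 rows, *Ldhb* and *Egln3*, were upregulated DEGs, where 2.81% of all genes were.

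Of the 7 hypoxia-inducible effectors, 6 were tested and 2 were higher in Act. *P4ha1*, for a subunit of the prolyl hydroxylase that matures collagen, had 840, 706 and 635 in CTRL, 925, 889 and 858 in Act, 823, 715 and 723 in FST and 833, 744 and 764 in Act + FST. The lowest Act library was close to the highest of the others, and replicate 1 was the highest of each group (log2 0.30, SE 0.09, adjusted p = 0.03). *Higd1a*, for a mitochondrial inner membrane protein, had 79, 76 and 81 in CTRL, 103, 95 and 106 in Act, 77, 76 and 86 in FST and 86, 74 and 86 in Act + FST (log2 0.36, SE 0.10, adjusted p = 0.029). Leaving out 1 library ended the call for *P4ha1* in 5 cases (CTRL replicates 2 and 3 and the 3 Act replicates), with adjusted p up to 0.13. It ended that for *Higd1a* in 5 cases (the 3 CTRL replicates and Act replicates 1 and 3), with adjusted p up to 0.098. *Bnip3* and *Bnip3l*, which encode mitophagy receptors, and *Mif*, for a cytokine, had log2 fold changes of 0.12, 0.00 and 0.13 and did not pass.

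*Ankrd37*, an ankyrin repeat gene known as a HIF-1α target, had 71, 43 and 35 in CTRL, 31, 37 and 40 in Act, 62, 30 and 30 in FST and 94, 34 and 31 in Act + FST. The libraries numbered 1 were the highest outside Act and the lowest within it, and the groups overlapped (log2 -0.40, SE 0.41, adjusted p = 0.57). *Adm* had 1, 4 and 0 in CTRL, 0, 0 and 1 in Act, 8, 1 and 3 in FST and 8, 0 and 1 in Act + FST. Its values are too low for a comparison.

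The exons of some members overlap other genes, and reads over several genes were left out, while the strand setting of the counting is not given in the sources used here. Overlap was largest for *Ankrd37* (26.4% of exonic bases, opposite strand), *Higd1a* (22.5%, opposite), *Bnip3* (22.3%, opposite), *Pgls* (20.6%, same strand), *Pkm* (15.3%, same) and *G6pdx* (13.6%, opposite). Their levels are uncertain to that extent.

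FST288 was used as the antagonist of activin A, and the comparison of Act with Act + FST asks what activin A changed that FST288 prevented. Of the 36 rows, 10 were higher (27.8%) and 3 were lower (8.33%) in Act than in Act + FST, where 11.1% of all genes were higher and 10.2% lower. Here too the members were chosen with earlier results of these data known. *Ldhb* was again the only DEG, where 2.72% of all genes were upregulated and 3.11% downregulated. The log2 differences were 1.34 for *Ldhb*, 0.78 for *Hif1a*, 0.73 for *Hk2*, 0.64 for *Pfkl*, 0.36 for *Pfkfb3* and 0.31 for *Pfkfb4*. They were 0.24 for *Egln1* and for *Taldo1*, 0.23 for *Eno1* and 0.21 for *Pgd*. The 3 lower genes were *Aldoc* (log2 -0.98), *Hk3* (-0.58) and *Pfkp* (-0.39). *P4ha1*, *Higd1a* and *Pgm2* did not pass here, with adjusted p of 0.16, 0.058 and 0.18. With the replicate block, *P4ha1* (adjusted p = 0.0088), *Higd1a* (adjusted p = 0.028), *Pkm* (adjusted p = 0.02) and *Egln3* (log2 1.97, adjusted p = 0.0031) passed as well. That made *Egln3* an upregulated DEG beside *Ldhb*, where 2.98% of all genes were. Without Act + FST replicate 1, *Egln3* also passed, at log2 2.98 (adjusted p = 0.005). The calls for *Egln1* and *Pfkfb3* were lost without Act replicate 2 (adjusted p = 0.066 and 0.053) or Act + FST replicate 3 (adjusted p = 0.061 and 0.063), and that for *Pfkfb3* also without Act replicate 1 (adjusted p = 0.062). This comparison and that of Act with CTRL share the 3 Act libraries.

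Among the groups other than Act, no member passed any test. Act + FST versus FST, which shares no library with Act versus CTRL, called 0 of the 36 rows and 0% of all genes by limma. At an unadjusted p under 0.05 it held 0 of the 36 rows and 502 genes. Act + FST versus CTRL called 0 rows and 0% of all genes, with 0 rows and 655 genes at an unadjusted p under 0.05. FST versus CTRL called 0 rows and 0% of all genes, with 0 rows and 299 genes at an unadjusted p under 0.05. With the replicate block the unadjusted counts were 1, 3 and 2 of 36 rows, where 8.16%, 9.81% and 4.89% of all genes had such a p. After adjustment 0 rows passed with the block in any of the 3 comparisons, where 0.217%, 0.559% and 0% of all genes did (31, 80 and 0 genes).

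The layout allows a direct test of whether the activin A effect was the same without and with FST288, from the difference between Act minus CTRL and Act + FST minus FST. This difference was above 0 for 5 of 36 rows (13.9%) and below 0 for 2 (5.56%), where 3.99% of all genes were above and 2.75% below. The 5 were *Ldhb*, *Hif1a*, *Hk2*, *Pfkl* and *Pfkfb4*, and the 2 were *Hk3* and *Pfkp*. As above, the members were chosen with earlier results of these data known. For *Hk2* the activin A effect was log2 0.70 without and 0.08 with FST288, and the difference 0.62 (SE 0.08, adjusted p = 0.00097). For *Hif1a* it was 0.68 without and -0.01 with FST288 (difference 0.69, SE 0.12, adjusted p = 0.0042). The calls for *Pfkfb4* (adjusted p = 0.032) and *Pfkp* (adjusted p = 0.04) were lost in 7 and 11 of the 12 fits that left out 1 library, with adjusted p up to 0.08 and 0.093. With the replicate block 12 rows passed, 9 above 0 and 3 below, where 9.36% and 6.96% of all genes did. *Pfkfb3*, *Pgd*, *Taldo1*, *P4ha1* and *Aldoc* were added there.

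Several members also differed between replicate numbers, which the labels give alike in each group. With group in the model, 11 of 36 rows (30.6%) differed by the F-test, where 21.6% of all genes did. Without the Act libraries the count was again 11 of 36, where 19.5% of all genes passed. *Pfkfb3* (adjusted p = 0.00052) and *Hif1a* (adjusted p = 0.0033) were lower in the libraries numbered 3 than in those numbered 1, by log2 0.23 and 0.22. *Aldoc* was higher in the libraries numbered 3, by log2 0.43 (adjusted p = 0.0031). *Egln3* was lower in the libraries numbered 2 and 3 than in those numbered 1, by log2 1.44 and 1.83 (adjusted p = 0.0076), and *Ankrd37* by 0.73 and 0.81 (adjusted p = 0.045). The others were *P4ha1*, *Pfkm*, *Pdk1*, *Pgls*, *Egln1* and *Pfkl*. When the prior of the test took no account of the mean level, 2 of 36 rows passed, where 11.5% of all genes did.

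Libraries numbered 1 also had higher summed values of stromal markers, carried mainly by *Col1a1* and *Col1a2*. *Col3a1* was at 0 to 4 in every library, and *Dcn* was at 2, 2 and 0 in Act. Summed values of the 5 stromal markers were 55, 4 and 3 in CTRL, 200, 20 and 12 in Act, 107, 7 and 9 in FST and 90, 3 and 12 in Act + FST. *Col1a2*, which encodes a chain of collagen type I, was at 0 in CTRL replicates 2 and 3 and in Act + FST replicate 2. The highest stromal sum was in Act replicate 1, where *Egln3* (124) was at the level of the other Act libraries and *Ankrd37* (31) was the lowest of its group. Activin A and replicate number coincide in that library, and a link between stromal markers and these genes was not tested. Other hypoxia-inducible genes with higher values in libraries numbered 1 were *Plod2* (adjusted p = 2.6e-05) and *Ak4* (adjusted p = 0.0041), chosen after their values were seen. With the libraries numbered 1 left out, 11 rows were higher and 3 lower in Act than in CTRL, against 13 and 3 with all libraries, where 8.67% and 7.7% of all genes were. The calls for *Pfkfb3* (adjusted p = 0.094), *Egln1* (adjusted p = 0.061) and *Higd1a* (adjusted p = 0.14) were lost there and that for *Egln3* was gained.

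**Figure D4:**
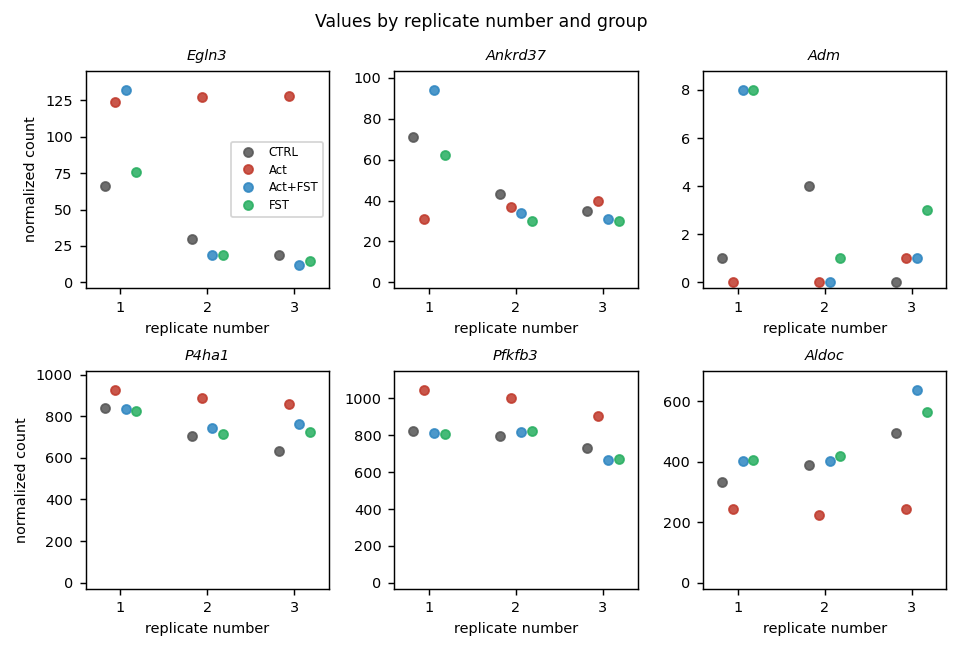
Normalized counts by replicate number (horizontal axis) for 6 members, with groups in colours and vertical axes that include 0. Outside Act, *Egln3* is at 66 to 132 in the libraries numbered 1 and at 12 to 30 in the others, while the Act libraries stay at 124 to 128.

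Levels of the members spanned a wide range. Per exonic base, averaged over the 12 libraries, *G6pdx* (0.379), *Aldoa* (0.364) and *Hk3* (0.327) were the highest. They were above 98.6%, 98.4% and 97.6% of genes. *Adm* (0.0014) was the lowest. *Gapdh* was at 0.0667, above 52.3% of genes. These levels were not corrected for reads that share a start position. The order depended on the length used. Per base of 1 principal transcript, *Aldoa* (0.701), *Pgd* (0.644) and *Taldo1* (0.513) were the highest, *G6pdx* was at 0.440, *Hk3* at 0.375 and *Gapdh* at 0.194. The members together took 0.39% to 0.40% of all normalized counts in Act libraries and 0.359% to 0.375% in the other 9.

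Genes of neighbouring pathways did not rise as a body. Of 108 genes tested in 8 lists, 13 were higher in Act than in CTRL and 14 lower, where 10.3% and 9.97% of all genes were. The median log2 fold change was -0.01. The counts of each list below stand beside these same shares of all genes. With the replicate block, 24 were higher and 20 lower, where 16.3% and 15.2% of all genes were. Among 11 genes listed for the transport of glucose and lactate, 3 were higher and 2 lower, and with the block 3 and 5. *Slc2a1* (GLUT1, the main glucose carrier of macrophages) had 293, 227 and 238 in CTRL, 440, 405 and 438 in Act, 304, 204 and 220 in FST and 302, 195 and 246 in Act + FST (log2 0.76, SE 0.16, adjusted p = 0.0057). *Slc2a6* rose by log2 1.01 (SE 0.12, adjusted p = 0.00011) and *Slc16a3*, the lactate exporter MCT4, by 0.69 (SE 0.18, adjusted p = 0.015). The call for *Slc16a3* was lost without CTRL replicate 3 (adjusted p = 0.064). *Slc2a3* (log2 -0.42) and *Slc2a9* (log2 -0.54) were the 2 lower ones.

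The regulators of HIF moved in different directions, with 1 of 8 tested higher and 3 lower. *Vhl*, part of the ubiquitin ligase that removes hydroxylated HIF-α, had 363, 365 and 369 in CTRL, 532, 547 and 613 in Act, 365, 339 and 354 in FST and 371, 354 and 364 in Act + FST. Every Act library was above the other 9 (log2 0.62, SE 0.05, adjusted p = 9.3e-06). *Epas1*, which encodes HIF-2α, had 276, 260 and 287 in CTRL, 148, 138 and 117 in Act, 292, 298 and 352 in FST and 240, 239 and 307 in Act + FST. It was lowest in Act (log2 -1.03, SE 0.11, adjusted p = 5.1e-05), the opposite direction to *Hif1a*. *Cited2*, an inhibitor of HIF-1α, was lower by log2 0.20 (adjusted p = 0.011), and without Act replicate 2 it did not pass (adjusted p = 0.054). *Hif1an* was the third lower gene (log2 -0.13, adjusted p = 0.032), a call lost without CTRL replicate 2 or 3 or any Act replicate (adjusted p up to 0.14).

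Of 23 other hypoxia-inducible genes tested, 4 were higher and 2 lower. *Vegfa* (vascular endothelial growth factor A) rose by log2 0.42 (SE 0.08, adjusted p = 0.002) and *Bhlhe40*, a transcriptional repressor, by 0.79 (SE 0.08, adjusted p = 2.1e-05). *Ndrg1*, a stress-response gene, had 867, 841 and 857 in CTRL, 513, 482 and 470 in Act, 891, 889 and 923 in FST and 856, 816 and 853 in Act + FST. It fell, with all Act libraries below the rest (log2 -0.81, SE 0.04, adjusted p = 3.2e-07). *Mxi1* (log2 0.24), which was higher, and *Anxa1* (log2 -0.38), which was lower, were chosen after their values were seen. The call for *Mxi1* was lost without CTRL replicate 2, CTRL replicate 3 or Act replicate 2 (adjusted p up to 0.058).

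**Figure D5:**
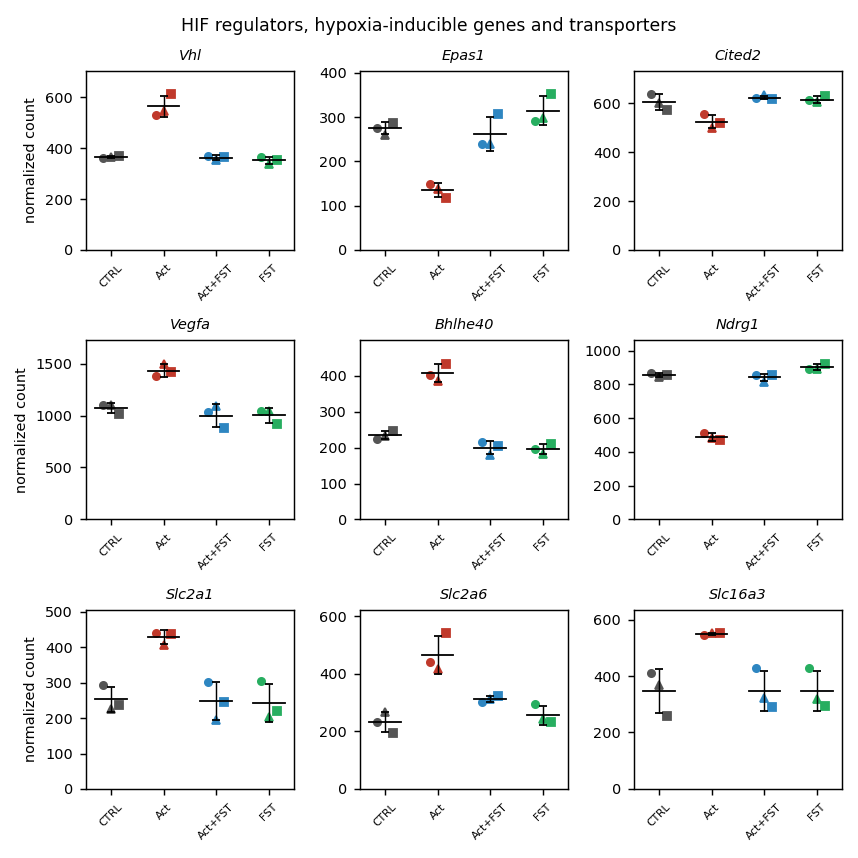
Normalized counts in every library for 9 genes outside the member list. Symbols are replicates 1, 2 and 3, the line is the group mean and the bar the SD (n = 3), and axes start at 0. *Vhl*, *Vegfa*, *Bhlhe40* and the 3 transporters are higher in Act, and *Epas1*, *Cited2* and *Ndrg1* are lower.

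Of 10 other pentose phosphate genes, 1 was higher and 2 lower. *H6pd*, the glucose 6-phosphate dehydrogenase of the endoplasmic reticulum, rose by log2 0.36 (SE 0.06, adjusted p = 0.00069). *Shpk*, for sedoheptulokinase (log2 -0.42, SE 0.09, adjusted p = 0.0045), and *Dera*, for deoxyribose-phosphate aldolase (log2 -0.31, SE 0.07, adjusted p = 0.0082), fell. In the list of pyruvate entry, with 11 tested, *Pdk3* was higher (log2 0.41, adjusted p = 0.038) and *Pdp1* lower (log2 -0.33, adjusted p = 0.014). They encode a kinase and a phosphatase of pyruvate dehydrogenase. The call for *Pdk3* was lost without CTRL replicate 2 or 3, any Act replicate or FST replicate 3 (adjusted p up to 0.16), and that for *Pdp1* without CTRL replicate 3 (adjusted p = 0.066) or Act replicate 3 (adjusted p = 0.056).

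Of 20 genes of gluconeogenesis and glycogen, 2 were higher and 2 lower, and with the block 7 and 4. *Ppp1r3d*, a glycogen-targeting subunit of protein phosphatase, rose by log2 0.38 (adjusted p = 0.015), *Pygl*, the liver form of glycogen phosphorylase, by 0.19 (adjusted p = 0.0064), and *Gyg*, the primer of glycogen synthesis, changed by -0.35 (adjusted p = 0.0017). The other lower gene was *Phka2* (log2 -0.19). The call for *Ppp1r3d* was lost without CTRL replicate 2 (adjusted p = 0.058) or Act replicate 3 (adjusted p = 0.056). Of 13 other glycolytic enzymes and isozymes, 0 passed in either direction by limma. At an unadjusted p under 0.05 there were 4, where 32.2% of all genes had such a p. With the replicate block 4 were higher, namely *Gpd2* (log2 0.28, adjusted p = 0.0011), *Ldhd* (log2 0.98, adjusted p = 0.0041), *Tigar* (log2 0.32, adjusted p = 0.0077) and *Adpgk* (log2 0.12, adjusted p = 0.034). Of 14 regulators of glycolytic transcription, 1 was higher and 2 lower. *Myc* was lower by log2 0.86 (SE 0.24, adjusted p = 0.022), a call lost without CTRL replicate 1 or 2 or Act replicate 2 or 3 (adjusted p up to 0.096). *Akt2* was lower by log2 0.12 (adjusted p = 0.041), a call lost in 8 of the 12 fits without 1 library (adjusted p up to 0.15). The higher gene was *Ppargc1b* (log2 0.63, adjusted p = 0.046), a call lost in 9 of the 12 fits without 1 library (adjusted p up to 0.17).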

How the data were processed

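RNA of 12 BMDM libraries was made into stranded mRNA libraries. The authors trimmed single-end reads (Trimmomatic 0.39), aligned them to mm10 with STAR 2.7.9a, and counted them per gene with featureCounts 2.0.2, leaving out reads on several genes or places. The deposited values are a score in the sense of a normalized unit: counts scaled by 1 factor per library by the authors and rounded to whole numbers, with the formula not given in the sources used here. They are not raw counts, so no count model was used.

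Genes with a mean of at least 5 were tested by two-sided limma 3.58.1 under R 4.3.3 on log2(value + 1), with a trended empirical Bayes prior, 12 libraries in 1 model of 4 group means and Benjamini-Hochberg adjustment over all genes tested. Fold changes on this scale understate those of low genes. On simulated data with 3-fold changes in Act versus CTRL, 83.9% of the changed genes were recovered among 14326 tested, with 8 false calls. Those changes were larger than any called among the members in this model, and the simulation held no effect of replicate number. The recovery therefore does not apply to the smaller changes of the members.

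Replicate numbers come from the labels and are the same in each group. Deviations from the group means of libraries with the same number correlated by 0.16 to 0.48 over 18 pairs, so they were treated as pairing the libraries, and a fit with this block was an alternative. The other alternatives were pseudocounts of 0.5 and 5, no filter and a mean of at least 50, quantile normalization, recomputed scaling factors, a prior without a trend, values corrected for shared start positions, only the libraries compared, a fold of 1.5, and leaving out each library. Fits without the libraries numbered 1, and alternatives for the test of replicate numbers, were chosen after seeing the data.

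Members and pathway lists were chosen with earlier results of these data known. Values in every library are given for members that passed in Act versus CTRL or Act versus Act + FST and for *G6pdx*. *Egln3*, *Ankrd37*, *Adm* and *Pkm* were added for their spread between libraries or their call with the block. From each neighbouring list, up to 3 genes with the largest changes and a mean of at least 50 are named. *Slc2a3*, *Slc2a9*, *Hif1an*, *Mxi1*, *Anxa1*, *Phka2*, *Ppargc1b*, *Gpd2*, *Ldhd*, *Tigar* and *Adpgk* were added after their values were seen. The values of 1 gene of these lists are not reported here. Exon lengths are from GENCODE M21, which held 18359 of the gene identifiers.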

Additional observations from a re-analysis of the deposited data

Results flagged for a closer look

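The activin A effect differed without and with FST288 for 7 members, by the limma test of the difference itself (effect in the absence minus effect in the presence of FST288, n = 3 libraries per group). It was 1.13 for *Ldhb* (log2 1.28 without and 0.15 with FST288), 0.688 for *Hif1a* (0.68 and -0.01), 0.618 for *Hk2* (0.70 and 0.08), 0.579 for *Pfkl* (0.60 and 0.02) and 0.331 for *Pfkfb4* (0.25 and -0.08). It was -0.549 for *Hk3* (-0.57 and -0.02) and -0.342 for *Pfkp* (-0.45 and -0.11).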

How the results depend on the processing

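Of the counts of members, those of the comparisons among groups other than Act were 0 under every alternative. Higher and lower members in Act versus CTRL (13 and 3) and in Act versus Act + FST (10 and 3) stayed within 1.5 times under each alternative other than leaving out 1 library. Without 1 library they were 7 to 14 and 2 to 3, and 8 to 11 and 3, and the lowest of these was without CTRL replicate 2. Without CTRL replicate 3 or Act replicate 1 the first was 8. Shares of all genes in fits without 1 library are not given here or below.

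Upregulated DEGs in Act versus CTRL were 1, and 2 with the replicate block, with only the libraries compared, and with replicates 2 and 3 only (with or without the block). At a fold of 1.5, for which the share of all genes is not given here, there were 4 upregulated and 1 downregulated. In Act versus Act + FST they were 1, and 2 with the replicate block or with replicates 2 and 3 only, with or without the block, and 4 at a fold of 1.5. Downregulated DEGs there were 0, and 1 (*Aldoc*) with the correction for shared start positions, with replicates 2 and 3 only (with or without the block) or at a fold of 1.5. Without 1 library, upregulated DEGs were 1 to 2 in both comparisons (2 without Act + FST replicate 1), and downregulated DEGs 0 in Act versus CTRL and 0 to 1 in Act versus Act + FST (1 without Act replicate 1 or 3 or Act + FST replicate 1 or 2).

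The difference of the activin A effect without and with FST288 was called for 7 members, for 12 with the replicate block, and for 5 to 7 without 1 library. Higher genes of the neighbouring lists were 13, 24 with the replicate block and 9 to 16 without 1 library, and lower ones 14, 20 with the replicate block and 10 to 14 without 1 library. Differences between replicate numbers were called for 11 members, and for 2 with a prior without a trend. The difference of *Ankrd37* between Act and Act + FST, -0.36, ranged from -0.65 to 0.14 without 1 library (0.14 without Act + FST replicate 1) and was 0.24 with replicates 2 and 3 only, with or without the block. In Act versus CTRL, 45 genes (the members called, *Egln3*, *Ankrd37*, *Pkm* and the named genes of the neighbouring lists, without the 4 named for their call with the block) had 1078 values under the alternatives. Of these 971 kept direction and call, 99 lost the call and 8 gained it. Beside leaving out a library, calls were lost with a prior without a trend (*Pfkfb3*, *Pgm2*, *Egln1*, *P4ha1*, *Pdk3*, *Akt2* and *Hif1an*), with quantile normalization (*Pgm2*, *Pgd*, *Egln1* and *Pdk3*), with only the libraries compared (*Pgm2*, *P4ha1*, *Akt2*, *Hif1an* and *Ppargc1b*), without a filter (*Pgm2* and *Akt2*) and with replicates 2 and 3 only (*Pfkfb3*, *Egln1*, *Higd1a*, *Ppp1r3d*, *Akt2*, *Phka2* and *Ppargc1b*). The replicate block changed no other call of a member than those given with its value. The cause of these changes was not tested. The number of libraries, 3 per group, limits what differences can be seen, most for low genes such as *Adm*.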
